A study of Homo sapiens with 27 samples.

Results

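The lamins and inner nuclear membrane proteins, a set of 10 genes, were followed in IMR90, a fibroblast line derived from normal human fetal lung, across 5 states of growth, arrest and stress. The genes were LMNA, LMNB1, LMNB2, LBR, TMPO, EMD, LEMD3, SUN1, SUN2 and BANF1, taken by gene symbol as 10 of the 60534 gene IDs that the count files share. All 10 passed the filter on low counts in both assays. The study set 2 kinds of senescent cell beside cycling, quiescent and acutely stressed cells, with RNA-seq for mRNA levels and Ribo-seq for ribosome footprints, the mRNA fragments that ribosomes shield from RNase. Cycling cells were untreated and growing, and quiescent cells were labelled as contact-inhibited. Quiescent cells kept more mRNA of proliferation genes than senescent cells (given below), and the share still dividing was not measured. The quiescent and senescent states are called arrested by label only. Irradiated cells had received 15 Gy of ionizing radiation and were collected 10 days later. Etoposide cells had received the topoisomerase II poison etoposide at 50 µM in 3 treatments over 10 days. Thapsigargin cells were cycling cells given 25 nM thapsigargin, an inhibitor of the calcium pump of the endoplasmic reticulum, for 3 hours. All cells were wild type, so what the groups share is the cell line, and every result is from 1 line in culture.

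The nuclear lamina is a mesh of intermediate filament proteins under the inner nuclear membrane. B-type lamins (LMNB1 and LMNB2) keep a farnesyl lipid that holds them at the membrane, whereas prelamin A, the precursor of lamin A from LMNA, loses its farnesylated end to the protease ZMPSTE24. Inner membrane proteins tie this mesh to chromatin: LBR binds B-type lamins and heterochromatin, LEM-domain proteins (TMPO, EMD and LEMD3) bind the small DNA-bridging protein BANF1, and SUN1 and SUN2 join the lamina to nesprins of the outer membrane in the LINC complex. Loss of lamin B1 is a widely used mark of senescent fibroblasts.

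RNA-seq covered 2 cycling, 3 quiescent, 3 irradiated, 3 etoposide and 2 thapsigargin libraries, and Ribo-seq covered 3, 3, 3, 3 and 2. Libraries held 20.6 to 57.1 M gene counts (M, 1e6) in RNA-seq and 1.94 to 20.0 M in Ribo-seq, where the thapsigargin libraries (1.94 to 2.05 M) and irradiated libraries (2.65 to 5.56 M) were the shallowest. Nothing in the labels says that replicates came from separate cultures, so the p-values measure only the spread between these samples, which may be technical. Levels are counts scaled by TMM to 1e6 per library (CPM), and since they were not divided by transcript length they are compared between states and not between genes. All 10 fibroblast markers examined were above 1 CPM in some library of each assay, and of the 5 immune markers none was above 1 CPM in RNA-seq while CD14 reached 2.32 CPM in Ribo-seq (etoposide). An immune marker was called higher after etoposide in each assay. Of the epithelial and endothelial markers in RNA-seq KRT19 reached 96.3 CPM (thapsigargin) and TEK 88.3 CPM (etoposide). The thapsigargin RNA libraries had 1.35 to 1.40% unmapped reads against 27.9 to 40.7% in the others. The thapsigargin Ribo-seq libraries had 65.2 and 66.9% multimapping reads against 19.8 to 31.9% in the other Ribo-seq libraries, and 11.4 and 12.8% of unique reads outside genes against 1.45 to 2.93%. Treatment and library handling therefore cannot be told apart in any comparison with them. These are bulk samples, in which fewer cells that carry an mRNA and less of that mRNA per cell cannot be told apart.

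The promoters of the 3 genes with the largest mean fall over the 2 senescent states (LMNB1, TMPO and LBR) and of LMNA, which was not called in the arrested states, are shown because cell-cycle genes often carry CHR or E2F elements just before the start site. RefSeq on GRCh38.p14 gave windows for 9 of the 10 genes (not SUN1). Each sequence below is the 250 bases before the most upstream RefSeq start, 5′ to 3′ on the gene's strand, with capitals for any match to the motifs TTTGAA or TTCGAA (CHR) and TTTCCCGC, TTTGGCGC, TTTCGCGC or TTCCCGCC (E2F) on either strand. LMNB1 lies at chr5:126776373-126776622 on the plus strand, LBR at chr1:225428822-225429071 on the minus strand, TMPO at chr12:98515323-98515572 on the plus strand and LMNA at chr1:156082323-156082572 on the plus strand.
LMNB1: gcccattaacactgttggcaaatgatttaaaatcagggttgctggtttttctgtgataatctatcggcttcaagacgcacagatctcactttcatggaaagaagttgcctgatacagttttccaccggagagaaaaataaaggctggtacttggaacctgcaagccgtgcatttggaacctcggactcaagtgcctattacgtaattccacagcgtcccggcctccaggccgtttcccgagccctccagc
LBR: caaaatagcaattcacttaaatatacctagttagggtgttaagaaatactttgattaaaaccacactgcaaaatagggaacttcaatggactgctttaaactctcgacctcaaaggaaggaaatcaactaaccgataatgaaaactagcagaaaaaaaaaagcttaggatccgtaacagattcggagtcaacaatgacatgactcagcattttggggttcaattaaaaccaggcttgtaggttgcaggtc
TMPO: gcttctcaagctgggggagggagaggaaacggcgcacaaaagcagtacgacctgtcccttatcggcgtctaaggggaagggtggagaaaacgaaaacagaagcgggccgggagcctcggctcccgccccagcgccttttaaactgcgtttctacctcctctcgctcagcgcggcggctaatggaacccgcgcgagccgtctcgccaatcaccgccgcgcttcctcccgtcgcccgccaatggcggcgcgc
LMNA: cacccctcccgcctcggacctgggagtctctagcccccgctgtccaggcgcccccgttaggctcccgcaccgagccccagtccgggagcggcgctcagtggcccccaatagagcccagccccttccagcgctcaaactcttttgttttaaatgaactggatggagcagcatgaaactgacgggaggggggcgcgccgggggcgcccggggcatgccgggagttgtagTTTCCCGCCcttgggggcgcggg
No motif matched in these LMNB1, LBR and TMPO windows, nor in the windows of other RefSeq starts of LMNB1 and TMPO. LMNA held TTTCCCGC from base -23, which overlaps TTCCCGCC from base -22 on the same strand, where -1 is the base before the start. Among the other genes, LEMD3 held TTTCCCGC from base -134, LMNB2 held TTTGAA from base -246 and SUN2 held TTTGAA on the opposite strand from base -111. Of 35116 promoter windows of this length, 13.3% held TTTGAA, 1.19% TTCGAA, 1.39% TTTCCCGC, 0.55% TTTGGCGC, 0.439% TTTCGCGC and 2.72% TTCCCGCC. These matches describe the letters only.

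Against cycling cells, most of the 10 genes were called lower in mRNA in each arrested state and none was called higher. In edgeR's quasi-likelihood test, with a gene called at an adjusted p under 0.05 over all genes tested, 6 genes fell in quiescent cells, 7 after irradiation and 6 after etoposide. Over all 13293 genes tested, 15.6% were called in quiescent cells (5.18% higher and 10.4% lower), 34.9% after irradiation (16.2% higher and 18.8% lower) and 34.6% after etoposide (16.8% higher and 17.8% lower). The median log2 fold change of the 10 genes was -0.74 in quiescence, -1.33 after irradiation and -1.01 after etoposide, beside 0.02, 0.03 and 0.00 over all genes. LMNB1, TMPO, LMNB2, LBR, SUN1 and SUN2 were called in all 3 arrested states. LEMD3 was called after irradiation, and LMNA, EMD and BANF1 were called in none of the 3. The comparisons share the same cycling libraries.

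**Figure D1:**
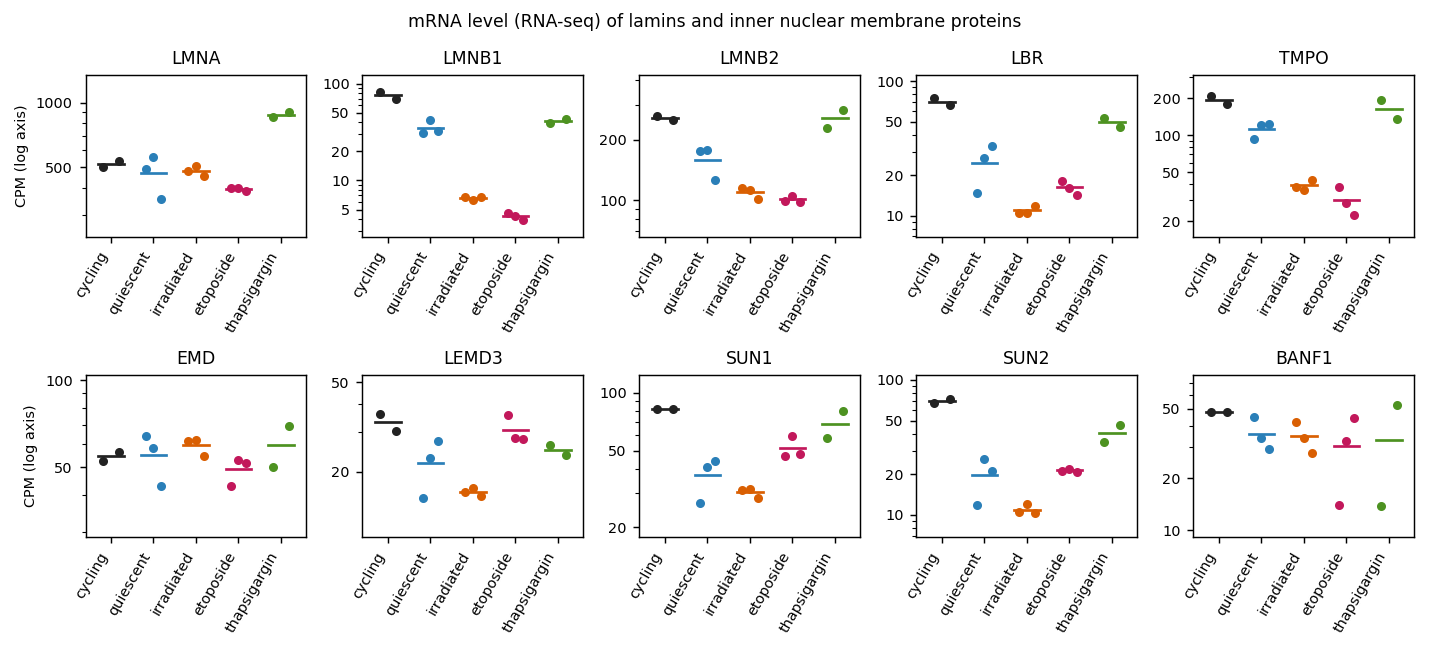
mRNA level (CPM, log axis, a separate scale for each gene) by state, with 1 point for each RNA-seq library and a line at the group mean. LMNB1 runs from 69.7 to 82.7 CPM in cycling cells down to 3.94 to 4.61 CPM after etoposide, while LMNA stays between 354 and 558 CPM in all states but thapsigargin.

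LMNB1 (ENSG00000113368, chr5:126776623-126837020) encodes lamin B1 and had the largest falls of the 10 genes from cycling to senescent cells in both assays. Its mRNA was 82.7 and 69.7 CPM in the 2 cycling libraries and 30.8, 42.2 and 32.6 CPM in the quiescent ones. It was 6.71, 6.26 and 6.68 CPM after irradiation, 4.61, 4.34 and 3.94 CPM after etoposide, and 38.9 and 42.6 CPM under thapsigargin. Cycling, quiescent, irradiated and etoposide libraries formed 4 ranges that did not overlap, in that order from high to low, and the thapsigargin libraries overlapped the quiescent range. The fall from cycling cells was 2.17-fold in quiescence (adjusted p = 0.00065), 11.6-fold after irradiation (adjusted p = 1.57e-08) and 17.8-fold after etoposide (adjusted p = 2.99e-09). Against quiescent cells, LMNB1 was 5.37-fold lower after irradiation (log2 -2.42 ± 0.15 SE) and 8.20-fold lower after etoposide (log2 -3.03 ± 0.15).

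LMNB1 footprints were 199.9, 176.1 and 191 CPM in cycling cells and 80.9, 111.9 and 84.7 CPM in quiescent cells. They were 14.2, 16.0 and 12.8 CPM after irradiation, 12.4, 9.76 and 8.80 CPM after etoposide, and 71.2 and 62.5 CPM under thapsigargin. The footprint ranges of all 5 states were separate, with the thapsigargin libraries between the quiescent and the irradiated ones. Footprints fell 2.04-fold in quiescence, 13.3-fold after irradiation and 18.3-fold after etoposide (adjusted p = 0.000361, 2.98e-09 and 3.73e-10).

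LMNB2 (ENSG00000176619, chr19:2428166-2456959), which encodes the other main B-type lamin, fell less. Its mRNA was 263 and 252 CPM in cycling cells, 175, 177 and 126 CPM in quiescent cells, 115, 113 and 101 CPM after irradiation, 99.4, 104.9 and 98.3 CPM after etoposide, and 230 and 283 CPM under thapsigargin. The irradiated and etoposide ranges overlapped each other and lay below all quiescent libraries, which lay below the cycling ones. The fall was 2.35-fold after irradiation and 2.55-fold after etoposide (adjusted p = 2.59e-05 and 1.05e-05), and 1.61-fold in quiescence (adjusted p = 0.00629). The call in quiescence was lost without cycling RNA replicate 1 (adjusted p = 0.0654) and with the 2 groups fitted alone (adjusted p = 0.051). LMNB2 footprints fell 2.33-fold after irradiation and 2.49-fold after etoposide. Their fall of 1.56-fold in quiescence (adjusted p = 0.0251) was lost without any 1 of cycling replicates 1 and 3 and quiescent replicates 1 and 2, and with the 2 groups fitted alone (adjusted p of 0.0551 to 0.115).

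LMNA (ENSG00000160789, chr1:156082573-156140081), which encodes lamins A and C, had no called change in the arrested states. Its mRNA was 499 and 532 CPM in cycling cells, 489, 558 and 354 CPM in quiescent cells, 481, 503 and 453 CPM after irradiation, 401, 399 and 385 CPM after etoposide, and 855 and 902 CPM under thapsigargin. The etoposide libraries lay below both cycling libraries, whereas the quiescent and irradiated ranges overlapped the cycling one. The log2 change was -0.14 ± 0.15 in quiescence, -0.11 ± 0.15 after irradiation (95% interval -0.43 to 0.22) and -0.38 ± 0.15 after etoposide (adjusted p = 0.062). LMNA footprints ranged from 1202 to 1856 CPM over the 12 Ribo-seq libraries of cycling, quiescent and senescent cells. Their log2 change was -0.03 ± 0.11 after irradiation and -0.25 ± 0.11 after etoposide (adjusted p = 0.0786). The LMNA fall after etoposide was called in some alternatives. These were RNA-seq with only the groups compared (adjusted p = 0.00535), and Ribo-seq with no filter on low counts (0.0349) or without cycling replicate 2 (0.0353).

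LBR (ENSG00000143815, chr1:225401502-225428821), the lamin B receptor, which is also a sterol reductase, was among the most reduced of the 10. Its mRNA was 74.9 and 66.4 CPM in cycling cells, 14.7, 26.8 and 32.8 CPM in quiescent cells, 10.5, 10.4 and 11.8 CPM after irradiation, 18.2, 16.2 and 14.3 CPM after etoposide, and 53.3 and 45.5 CPM under thapsigargin. All 9 arrested libraries were below both cycling libraries, and the irradiated libraries were the lowest. LBR mRNA fell 2.86-fold in quiescence, 6.47-fold after irradiation and 4.35-fold after etoposide (adjusted p = 0.00138, 2.94e-06 and 1.78e-05). Its footprints were 104.8, 102.8 and 97.7 CPM in cycling cells, 15.4, 36.4 and 29.8 CPM in quiescent cells, 10.5, 9.12 and 8.69 CPM after irradiation, and 22.3, 20.6 and 18.6 CPM after etoposide. The irradiated footprint libraries again lay below all others, and the etoposide libraries lay inside the quiescent range. The footprints fell 3.75-fold, 10.7-fold and 4.96-fold in those 3 states.

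TMPO (ENSG00000120802, chr12:98515573-98550351), which encodes the lamina-associated polypeptides LAP2, fell in the same order of states as LMNB1. Its mRNA was 208.7 and 180.5 CPM in cycling cells, 93.0, 121 and 125 CPM in quiescent cells, 38.3, 36.1 and 43.3 CPM after irradiation, 38.1, 28.2 and 22.4 CPM after etoposide, and 195 and 135 CPM under thapsigargin. The senescent libraries lay below every quiescent library, and the ranges of the 2 senescent states overlapped. The falls from cycling cells were 4.96-fold after irradiation and 6.59-fold after etoposide (adjusted p = 2.96e-06 and 5.09e-07). The fall in quiescence was 1.72-fold (adjusted p = 0.0214) and was lost without cycling RNA replicate 1, cycling replicate 2 or quiescent replicate 1 (adjusted p of 0.0649 to 0.182). TMPO footprints fell 1.57-fold in quiescence (adjusted p = 0.00285), 3.97-fold after irradiation and 4.82-fold after etoposide.

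The other LEM-domain genes moved less. LEMD3 (ENSG00000174106, chr12:65169583-65248355), also known as MAN1, binds SMAD proteins and limits TGF-beta signalling. Its mRNA was 36.1 and 30.2 CPM in cycling cells, 15.3, 23.0 and 27.4 CPM in quiescent cells, 16.2, 16.8 and 15.5 CPM after irradiation, 35.9, 28.2 and 28.1 CPM after etoposide, and 26.2 and 23.6 CPM under thapsigargin. The etoposide libraries overlapped the cycling range, and the irradiated libraries were below all of these. LEMD3 mRNA fell 2.05-fold after irradiation (adjusted p = 0.00145), and had a log2 change of -0.11 ± 0.20 after etoposide and of -0.60 ± 0.20 in quiescence (adjusted p = 0.063). Its footprints fell in quiescence, by 1.99-fold (adjusted p = 0.0149), and after irradiation, by 2.49-fold (adjusted p = 0.00245). The quiescent call was lost when the 2 groups were fitted alone (adjusted p = 0.0651).

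EMD (ENSG00000102119, chrX:154379295-154381523), which encodes emerin, had mRNA between 43.1 and 69.5 CPM in all 13 RNA-seq libraries, and no RNA-seq comparison called it. Its footprints were 215, 202 and 193 CPM in cycling cells and 147, 147 and 168 CPM after etoposide, so these groups did not overlap. This 1.32-fold fall (adjusted p = 0.018) was lost without cycling Ribo-seq replicate 1 or etoposide replicate 1 or 2 (adjusted p of 0.0569 to 0.103). BANF1 (ENSG00000175334, chr11:66002503-66004149), the chromatin-bridging partner of the LEM domain, was called in no comparison of the main fit. With only the groups compared, its mRNA was called lower after irradiation (log2 -0.49, adjusted p = 0.0116). Without thapsigargin RNA-seq replicate 2, its mRNA had a log2 change of -1.78 under thapsigargin. Its mRNA was 47.7 and 48.2 CPM in cycling cells but 14.1, 32.9 and 44.5 CPM after etoposide and 13.8 and 52.2 CPM under thapsigargin. This spread gave a standard error of 0.47 for its log2 change after etoposide, against 0.10 in Ribo-seq, where all 14 libraries lay between 78.4 and 103.8 CPM.

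The SUN proteins span the inner membrane. SUN2 (ENSG00000100242, chr22:38734734-38755998) had mRNA of 68.0 and 72.8 CPM in cycling cells, 11.8, 25.9 and 21.2 CPM in quiescent cells, 10.5, 12.1 and 10.3 CPM after irradiation, 21.3, 21.9 and 21.0 CPM after etoposide, and 34.5 and 46.0 CPM under thapsigargin. All arrested libraries lay below both cycling libraries, and the etoposide libraries lay within the quiescent range. SUN2 mRNA fell 3.59-fold in quiescence, 6.42-fold after irradiation and 3.29-fold after etoposide (adjusted p = 0.000589, 2.71e-06 and 9.01e-05). SUN2 footprints fell 4.26-fold, 8.10-fold and 4.08-fold, from 127, 110 and 130 CPM in cycling cells to 13.1, 34.1 and 38.9 CPM in quiescent cells, 16.7, 12.5 and 15.4 CPM after irradiation and 30.5, 36.3 and 23.0 CPM after etoposide.

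SUN1 (ENSG00000164828, chr7:815557-874934), its paralog, had mRNA of 81.8 and 82.5 CPM in cycling cells, 26.7, 41.0 and 44.1 CPM in quiescent cells, 31.2, 31.6 and 28.4 CPM after irradiation, 46.7, 59.4 and 48.0 CPM after etoposide, and 58.0 and 79.9 CPM under thapsigargin. The etoposide libraries were above every quiescent and irradiated library and below the cycling ones. SUN1 mRNA fell by 1.14 in quiescence, 1.44 after irradiation and 0.68 after etoposide on the log2 scale (adjusted p = 0.00217, 9.18e-05 and 0.0164). The etoposide call was lost without cycling RNA replicate 1 or 2 or etoposide replicate 1 or 3 (adjusted p of 0.053 to 0.0798). SUN1 footprints fell 2.72-fold, 4.05-fold and 1.78-fold. Quiescent replicate 1 was the lowest quiescent library for LBR, LEMD3, SUN1 and SUN2 in both assays. Without it, in either assay, the calls of these genes in quiescence against cycling did not change.

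**Figure D2:**
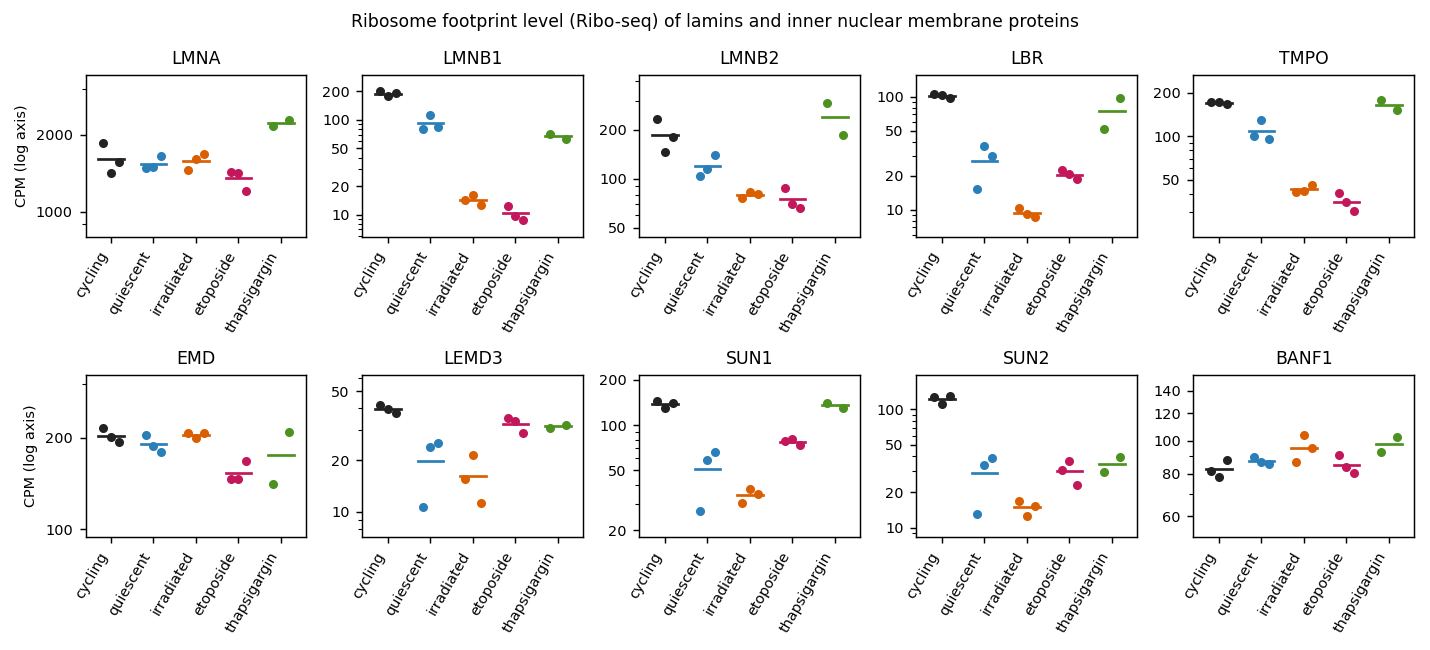
Ribosome footprint level (CPM, log axis, a separate scale for each gene) by state, with 1 point for each Ribo-seq library and a line at the group mean. LBR and SUN2 are lowest after irradiation among the group means, and BANF1 lies between 78.4 and 103.8 CPM in all 14 libraries.

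In Ribo-seq, 7 genes fell in quiescence, 7 after irradiation and 7 after etoposide, and none rose. Over the 11766 genes tested, 22.4% were called in quiescence (14.2% lower), 40.5% after irradiation (21.6% lower) and 33.9% after etoposide (17.1% lower). Both assays called the same 6 genes in quiescence, 7 after irradiation and 6 after etoposide, and no gene was called in opposite directions. The genes called in Ribo-seq alone were LEMD3 in quiescence and EMD after etoposide.

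**Figure D3:**
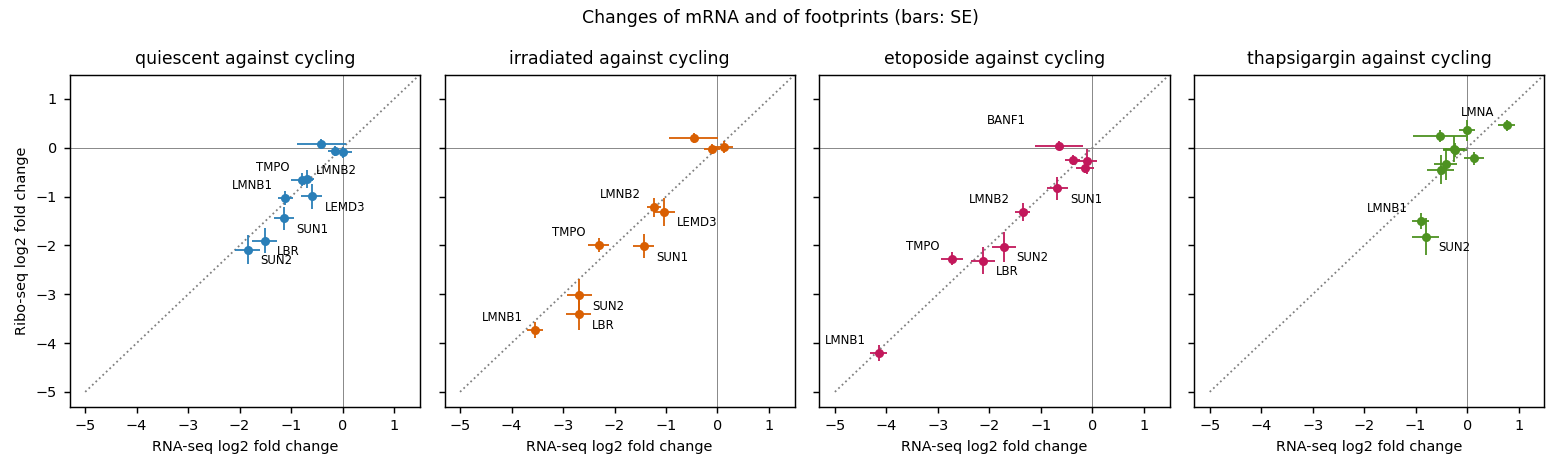
Log2 fold change against cycling cells in Ribo-seq (y axis) against RNA-seq (x axis) for the 10 genes, with 1 SE as bars and a dotted line where both are equal. LMNB1 lies near the line at -4.15 in RNA-seq and -4.20 in Ribo-seq after etoposide, and under thapsigargin LMNB1 and SUN2 lie below it.

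Senescent cells were also set beside quiescent cells. Of 12 proliferation genes, 11 were lower than in quiescence in each senescent state and each assay, with RNA-seq medians of -1.84 after irradiation and -2.02 after etoposide and a Ribo-seq median of -2.08 after irradiation. The part of this difference in the values below was not tested. After irradiation, 5 genes had lower mRNA than in quiescence (LMNB1, TMPO, LBR, SUN2 and LMNB2) and 3 had fewer footprints (LMNB1, TMPO and LBR), where 18.7% of genes in RNA-seq and 14.6% in Ribo-seq were called. TMPO mRNA was 2.88-fold lower (adjusted p = 0.000133) and LBR mRNA 2.27-fold lower (adjusted p = 0.00274). The RNA-seq call of LMNB2 was lost without quiescent replicate 2 or irradiated replicate 3, and that of SUN2 without quiescent replicate 2 or irradiated replicate 1 or 3 (adjusted p of 0.0561 to 0.0845). The RNA-seq count was 3 without quiescent replicate 2 or irradiated replicate 3, and the Ribo-seq count was 7 without quiescent replicate 1. SUN1 had a log2 difference of -0.29 ± 0.18 in RNA-seq (adjusted p = 0.285). Without quiescent replicate 1, SUN1 and LEMD3 were also called lower in RNA-seq (adjusted p = 0.04 and 0.0113). In Ribo-seq the fit without that replicate added SUN1, SUN2, LMNB2 and LEMD3 as lower (adjusted p = 7.34e-05, 0.000151, 0.0204 and 0.0305). DESeq2 called LMNB2 and SUN2 footprints lower (adjusted p = 0.0386 and 0.0365), and LMNB2 footprints were called in further alternatives.

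After etoposide, 4 genes had lower mRNA than in quiescence (LMNB1, TMPO, LMNB2 and LBR) and LEMD3 had higher mRNA, where 41.7% of all genes were called. In Ribo-seq, LMNB1, TMPO and LMNB2 were lower and LEMD3 higher, where 35.8% were called. TMPO was 3.82-fold lower in mRNA (adjusted p = 8.11e-06) and 3.07-fold lower in footprints (adjusted p = 1.13e-06). LBR (1.52-fold lower in mRNA, adjusted p = 0.0401) and LEMD3 (1.40-fold higher in mRNA, adjusted p = 0.0462) each lost the call in 7 alternatives. These included fits without quiescent replicate 2 and without etoposide replicate 2 or 3, and gave adjusted p of up to 0.189. LEMD3 footprints, 1.64-fold higher (adjusted p = 0.05, just under the threshold before rounding), lost the call in 9 alternatives. LMNB2 footprints (1.60-fold lower, adjusted p = 0.0133) lost it without etoposide Ribo-seq replicate 2 or 3 (adjusted p = 0.0533 and 0.0601). The count was 3 in RNA-seq without quiescent replicate 2 or etoposide replicate 2 or 3, and 2 in Ribo-seq without etoposide replicate 2 or 3. SUN1 had a log2 difference of 0.46 ± 0.18 in mRNA (adjusted p = 0.0507) and 0.61 ± 0.23 in footprints (adjusted p = 0.0521), neither of which was called. It was called in 7 RNA-seq and 4 Ribo-seq alternatives, among them DESeq2 (adjusted p = 0.0264 and 0.0338) and a replicate block (adjusted p = 0.0307 and 0.0444). SUN2 mRNA had a log2 difference of 0.13 ± 0.22 from quiescence, with a 95% interval of -0.34 to 0.59.

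Irradiated and etoposide cells differed from each other in both directions. LEMD3, SUN1 and SUN2 had lower mRNA after irradiation, by 1.90-fold, 1.69-fold and 1.95-fold (adjusted p = 0.00305, 0.0081 and 0.00693), and LMNB1 had higher mRNA, by 1.53-fold (adjusted p = 0.00966), where 22.6% of all genes were called. No irradiated library overlapped an etoposide library for these 4 genes, which is no separate result, as the test that picked them used the same libraries. LBR mRNA was 1.49-fold lower with an adjusted p of 0.0862. It was called by DESeq2 (adjusted p = 0.0433) and with only the groups compared (adjusted p = 0.00189). TMPO mRNA was called higher after irradiation without etoposide RNA-seq replicate 1 (adjusted p = 0.0347). In Ribo-seq, where 22.5% of genes were called, SUN1 (2.28-fold), LBR (2.15-fold) and LEMD3 (2.05-fold) were lower after irradiation (adjusted p = 0.00422, 0.0227 and 0.0205), and EMD was 1.33-fold higher (adjusted p = 0.0247). SUN2 footprints were 1.99-fold lower with an adjusted p of 0.0529. They were called by DESeq2, with only the groups compared and without etoposide replicate 3 (adjusted p = 0.0169, 6.81e-05 and 0.0488). The footprint calls of LBR, LEMD3 and EMD were lost in 4, 3 and 5 fits that left out 1 library (adjusted p of 0.0616 to 0.161), among them the fits without irradiated replicate 1 and without etoposide replicate 1 for all 3. That of SUN1 was kept in each. The footprint count was 1 without irradiated replicate 1 or 3 or etoposide replicate 1, and 2 without irradiated replicate 2.

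**Figure D4:**
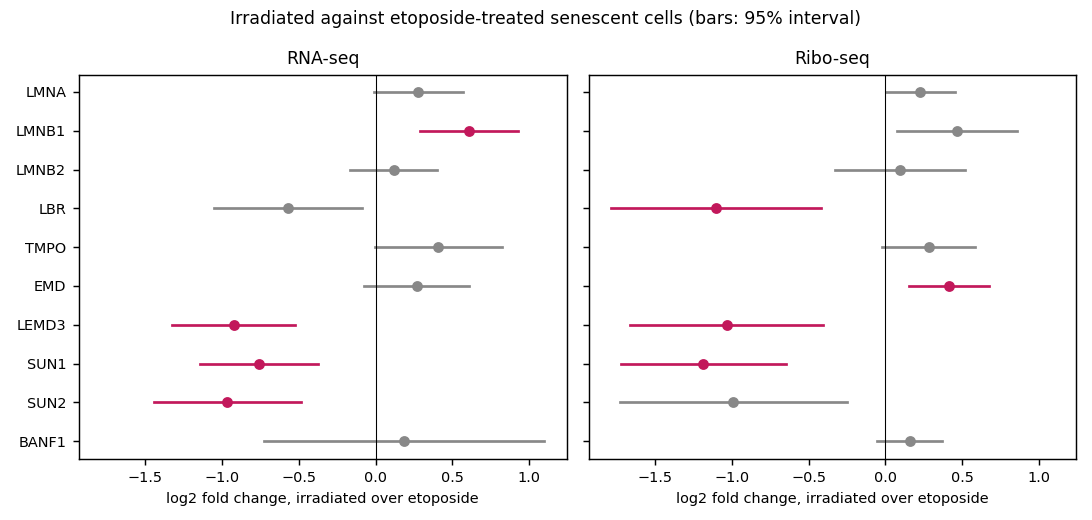
Log2 fold change of irradiated over etoposide cells for each gene in RNA-seq and Ribo-seq, as points with 95% intervals, red where the adjusted p is under 0.05 and grey otherwise. LBR, LEMD3, SUN1 and SUN2 lie below 0 in both assays and LMNB1 above.

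After 3 hours of thapsigargin, LMNA was higher and LMNB1 and SUN2 were lower in both assays. LMNA rose 1.70-fold in mRNA (adjusted p = 0.00478) and 1.38-fold in footprints (adjusted p = 0.0061), with footprints of 2158 and 2282 CPM against 1856, 1424 and 1561 CPM. LMNB1 fell 1.87-fold in mRNA (adjusted p = 0.00154) and 2.83-fold in footprints (adjusted p = 1.8e-05). SUN2 fell 1.75-fold in mRNA (adjusted p = 0.0382) and 3.54-fold in footprints (adjusted p = 0.00191), from 127, 110 and 130 CPM to 29.6 and 39.4 CPM. Thapsigargin and cycling libraries did not overlap for any of these 3 genes in either assay. The 3 were picked by the test on the same libraries, so this is no separate result. The other 7 genes were not called in either assay, beside 24.5% of all genes called in RNA-seq and 44.6% in Ribo-seq. The SUN2 call in RNA-seq was lost without cycling replicate 1 or 2, without thapsigargin replicate 1 and with the 2 groups fitted alone (adjusted p of 0.0546 to 0.18). Without thapsigargin Ribo-seq replicate 2 the footprint count rose from 3 to 6 genes.

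Translational efficiency, the footprint change over the mRNA change, was tested as the interaction of assay and state over all 27 libraries. edgeR called 0 of the 10 genes in each of the 7 comparisons, and DESeq2 also called 0 in each. At an unadjusted p under 0.05 the count was 2 under thapsigargin and 0 in the other 6. Over the 11715 genes tested, the share called was 0% in quiescence, 0.0256% after irradiation, 0.0683% after etoposide and 20.8% under thapsigargin against cycling. It was 0.0171% for irradiation and 0.0512% for etoposide against quiescence, and 0% for irradiation against etoposide. For LMNB1 the log2 change of efficiency was -0.21 ± 0.23 after irradiation (95% interval -0.68 to 0.27) and -0.07 ± 0.23 after etoposide (-0.55 to 0.41). The intervals of the 10 genes reached from 0.39 to 1.02 on either side of the estimate in these 2 comparisons, so changes smaller than these were not resolved. Under thapsigargin the estimates were -0.59 ± 0.24 for LMNB1 (adjusted p = 0.0784) and -1.01 ± 0.48 for SUN2 (adjusted p = 0.14). With only the compared groups fitted, irradiation gave 3 called genes, BANF1, LBR and SUN1, beside 543 over all genes. Under thapsigargin 1 gene was called without RNA-seq replicate 2 (BANF1), without Ribo-seq replicate 1 (LMNB1) and with the compared groups alone (SUN2).

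**Figure D5:**
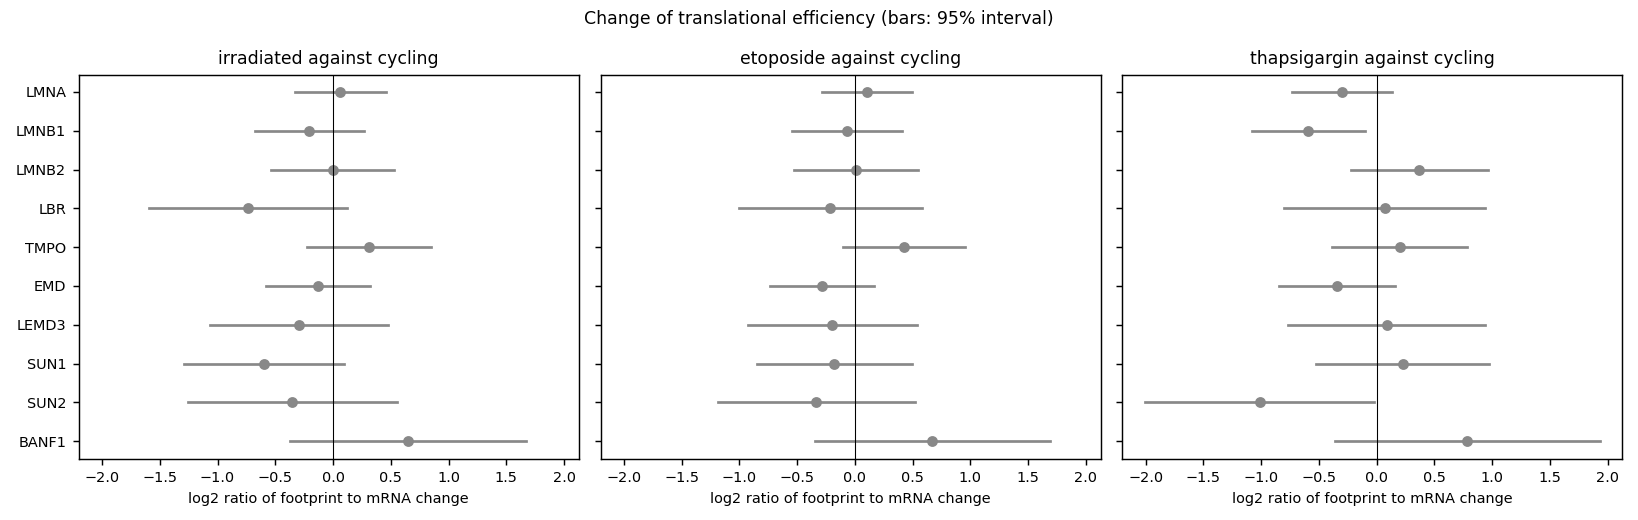
Log2 change of translational efficiency against cycling cells for each gene, as points with 95% intervals, after irradiation, etoposide and thapsigargin. All points are grey, for an adjusted p above 0.05, and the estimates run from -1.01 to 0.78.

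Genes that work with the lamina were taken from a list of 20, of which 19 were tested. In RNA-seq, 10 fell and 1 rose in quiescence, 13 fell and 1 rose after irradiation, and 12 fell and 2 rose after etoposide, with medians of -0.44, -0.69 and -0.73 beside 0.02, 0.03 and 0.00 over all genes. Over all genes 10.4%, 18.8% and 17.8% were called lower. In Ribo-seq 11, 13 and 6 fell and 1 rose in each of these states, beside 14.2%, 21.6% and 17.1% of all genes called lower. In RNA-seq, 9 fell and 1 rose in both senescent states. By mean change these were led by NRM (nurim, an inner membrane protein), with log2 changes of -2.02 and -2.49 after irradiation and etoposide, NEMP1 (-1.71 and -1.27), TMEM43 (-1.83 and -0.72) and VRK1 (-1.03 and -1.25), the kinase that phosphorylates BANF1. In Ribo-seq NRM, NEMP1 and VRK1 were called lower in both senescent states, and TMEM43 after irradiation but not after etoposide (adjusted p = 0.178). The gene whose mRNA rose in both senescent states was SYNE1, which encodes nesprin-1, the outer-membrane partner of SUN proteins. Its mRNA rose in all 4 comparisons with cycling cells, by 0.66 in quiescence, 0.42 after irradiation, 0.50 after etoposide and 0.92 under thapsigargin on the log2 scale (adjusted p = 0.00932, 0.0408, 0.0193 and 0.00129), and its footprints rose in the same 4. SUN2 fell in all 4 in both assays, and SUN1 in the first 3. SYNE2 (nesprin-2) fell after irradiation (log2 -0.62) and etoposide (log2 -1.33). SYNE1 and SYNE2, and TOR1A, TOR1B and the enzymes below other than RCE1, were named after their values were seen. The torsin genes TOR1A and TOR1B, ATPases of the nuclear envelope lumen, fell in quiescence (log2 -0.94 and -1.03) and after irradiation (-0.99 and -1.03), and were not called after etoposide (-0.06 and 0.38).

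Of the 5 prelamin-processing enzymes, 3 fell in quiescence, 3 after irradiation and 1 after etoposide in both assays. After etoposide this is near the share of all genes called lower (17.8% in RNA-seq and 17.1% in Ribo-seq). The RNA-seq medians were -0.94, -0.92 and -0.13. In mRNA, RCE1, which trims the farnesylated end, changed by -0.94, -1.54 and -0.57 on the log2 scale, ICMT, the methyltransferase, by -0.99, -0.92 and -0.30, and the protease ZMPSTE24 by -0.94, -1.17 and -0.13. Those of ICMT and ZMPSTE24 after etoposide were not called (adjusted p = 0.137 and 0.694). FNTA and FNTB, the farnesyltransferase subunits, were not called in mRNA in any comparison with cycling cells. RCE1, ICMT and ZMPSTE24 had lower mRNA after irradiation than after etoposide (log2 -0.97, -0.61 and -1.04, adjusted p = 0.00184, 0.00612 and 0.00275). In Ribo-seq ZMPSTE24 was lower (log2 -1.71, adjusted p = 0.000696), and RCE1 and ICMT were not called (adjusted p = 0.203 and 0.0615).

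Nuclear pore genes build the channels through the envelope. Of 30 tested, 1 fell in mRNA in quiescence (NDC1), 17 after irradiation and 16 after etoposide, with none higher, and medians of -0.09, -0.45 and -0.43. The shares of all genes called lower were 10.4%, 18.8% and 17.8%. In Ribo-seq 2, 13 and 14 fell and RANBP2 rose in each of the 3 states, beside 14.2%, 21.6% and 17.1% of all genes called lower. The same 16 fell in mRNA in both senescent states, led by NDC1, a membrane anchor of the pore (log2 -2.48 and -1.65), NUP107 (-0.86 and -1.04), NUP155 (-0.80 and -0.81) and NUP35 (-0.73 and -0.68). In Ribo-seq NDC1, NUP107 and NUP155 were called lower in both senescent states, and NUP35 in neither (adjusted p = 0.578 and 0.123). POM121 and RANBP2 have near-identical gene copies, so their counts are uncertain.

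The genes most like LMNB1 over the 13 RNA-seq libraries, by Pearson's r of log2 CPM among 13292 genes, were HJURP, CDCA7, CDKN2C, KIFC1 and BUB1, with r from 0.993 to 0.990. HJURP, KIFC1 and BUB1 act at centromeres or the spindle, CDCA7 is a nuclear protein tied to DNA methylation and CDKN2C is the CDK inhibitor p18. Within the 10 genes, LMNB1 was closest to TMPO (r = 0.979) and SUN1 to SUN2 (r = 0.950), and LMNB1 with SUN1 had r = 0.493. The genes most like LMNA were LPIN1, TSPYL4, AJUBA, ZNF628 and INTS15, with r from 0.962 to 0.952. All 5 rose under thapsigargin, by 0.50 to 1.47 on the log2 scale, as LMNA did. They were picked for likeness to LMNA, which was highest in the thapsigargin libraries, so this rise is no separate result. These correlations describe libraries that share states and depth, and most of the spread is between states.

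A list of 12 proliferation genes fell in the quiescent and senescent states, as LMNB1 did. Their summed mRNA level was 1259 to 1392 CPM in cycling cells, 504 to 802 CPM in quiescent cells, 238 to 266 CPM after irradiation, 224 to 256 CPM after etoposide and 1137 to 1152 CPM under thapsigargin. Of the 12, 10 fell in quiescence, 12 after irradiation, 11 after etoposide and 1 under thapsigargin in RNA-seq. Over all genes 10.4%, 18.8%, 17.8% and 12.8% were called lower in these states, so the count under thapsigargin was near the share of all genes. LMNB1 had 1.87-fold less mRNA under thapsigargin, where the median log2 change of the 12 genes was -0.11, beside -0.03 over all genes. Both proliferation sums under thapsigargin (1137 and 1152 CPM) lay below both cycling sums (1259 and 1392 CPM) and above all quiescent sums. The part of the dividing fraction of cells in any of these falls, that under thapsigargin included, was not tested.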

How the data were processed

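RNA-seq and Ribo-seq were taken from tables of raw counts per gene that the authors deposited, 1 for each of the 27 libraries. Per the submitters' processing notes, which give no role or order, these used bcl2fastq, STAR 2.7.10b, DESeq2 1.36.0 and hg38. Each table gives unstranded counts and counts for either strand; RNA-seq was read from the reverse-strand column and Ribo-seq from the forward-strand column. The other strand held 5.41 to 10.7% of stranded counts in RNA-seq and 3.56 to 4.22% in Ribo-seq.

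The tables carry 62703 gene IDs for RNA-seq and for thapsigargin Ribo-seq, and 60664 for the other Ribo-seq libraries. The 60534 shared IDs hold 99.6 to 99.97% of each library's gene counts. Footprints under thapsigargin against cycling, and efficiency in the other states, thus set counts made with different ID lists side by side. Protein-coding genes (19310 IDs) were kept, filtered with filterByExpr and scaled by TMM over the tested genes. edgeR 4.0.16 (R 4.3.3) fitted all 5 states of an assay together with its robust quasi-likelihood test, and translational efficiency as the interaction of assay and state. P-values were adjusted by Benjamini-Hochberg over all genes tested, a gene was called under 0.05, and intervals are 95%. DESeq2 1.42.0 was an alternative. The fits were run on simulated counts with known changes and the same dispersion for all genes. That check covered the mean change recovered and set no limit on false or missed calls. Replicates of a group differed by more than counting noise (chi-square per degree of freedom of 1.90 to 120.1 between pairs). Same-numbered libraries deviated together, with all 3 correlations over 0.1, for Ribo-seq of cycling with quiescent cells (0.154 to 0.272) and for RNA-seq with Ribo-seq of etoposide cells (0.134 to 0.382). The labels do not say what a replicate number marks.

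The 10 genes, the lists and the tests were chosen with earlier results of these data known. Named beside the 10 were up to 4 genes of each list with the largest mean change among those called the same way in both senescent states, and the 5 genes most like LMNB1 and LMNA. The alternatives were DESeq2 size factors, DESeq2, no filter on low counts, only the groups compared, unstranded counts, a replicate block, each library left out and, chosen after seeing the data, no thapsigargin libraries. Gene coordinates and promoters are from RefSeq on GRCh38.p14.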

Additional observations from a re-analysis of the deposited data

Results flagged for a closer look

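The effects of the 2 senescence inducers differed, by the test of irradiated against etoposide cells, in 4 genes of each assay. On the log2 scale, irradiated minus etoposide mRNA was 0.61 for LMNB1, -0.93 for LEMD3, -0.76 for SUN1 and -0.96 for SUN2. Irradiated minus etoposide footprints were -1.11 for LBR, -1.03 for LEMD3, -1.19 for SUN1 and 0.42 for EMD. Of the 2 senescent states, LMNB1 mRNA was thus lower after etoposide and SUN1, SUN2 and LEMD3 mRNA lower after irradiation, a pattern noticed after the values were seen. No group had more than 3 libraries, so no single library was tested as an outlier.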

How the results depend on the processing

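Of 210 comparisons of a gene, 71 were called, and 55 of these kept the call and direction in every alternative run. The other 16 lost it in at least 1, 29 uncalled ones gained it in at least 1, and 0 called ones reversed, whereas 157 alternative values of uncalled comparisons changed sign. No alternative moved a called value by more than 1.26-fold. Counts of called genes against cycling cells stayed within 1.5 times of the main count for quiescence, irradiation and etoposide in both assays. With only the groups compared, the count was 3 in RNA-seq for etoposide against quiescence (main 5), and in efficiency 3 for irradiation and 1 for thapsigargin against cycling (both 0). DESeq2 gave 5 in Ribo-seq for irradiation against quiescence (main 3). Leaving out 1 library gave 3 to 7 genes for irradiation against quiescence and 3 to 6 for etoposide against quiescence in RNA-seq. In Ribo-seq it gave 3 to 6 for thapsigargin against cycling, 3 to 7 for irradiation against quiescence, 2 to 6 for etoposide against quiescence and 1 to 5 for irradiation against etoposide, and in efficiency 0 to 1 for thapsigargin. The cause was not tested.

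Replicate numbers did not pair libraries throughout. Correlations of same-numbered deviations ran from -0.19 to 0.47 in RNA-seq (9 of 23 pairs over 0.1, against 13 of 44 with other numbers). They ran from -0.19 to 0.27 in Ribo-seq (6 of 26, against 5 of 52) and from -0.02 to 0.57 between the assays within a state (6 of 13, against 2 of 24). Deviations were taken from group means, so the pairs of a group are not independent. The block changed no call in quiescent against cycling cells, where 7 genes were called in Ribo-seq with and without it. With a replicate block, 1 gene (SUN2) was called in efficiency under thapsigargin, and LBR mRNA, LEMD3 mRNA and LEMD3 footprints lost the call between etoposide and quiescence (adjusted p = 0.0616, 0.0617 and 0.0519). It added SUN1 mRNA and footprints between etoposide and quiescence (adjusted p = 0.0307 and 0.0444) and LMNB2 footprints between irradiation and quiescence (adjusted p = 0.0466), and changed no other call. In all 4 Ribo-seq comparisons with cycling cells, SUN2, LBR and LEMD3 had the largest standard errors.

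The genes called over all genes, beside which the counts above are read, moved by over 1.5 times in these alternatives. Leaving out 1 cycling RNA-seq library gave 707 or 889 called genes in quiescence (2068 with all libraries), 2778 or 3090 after irradiation (4643), 2612 or 2917 after etoposide (4593) and 1723 or 1593 under thapsigargin (3259). Leaving out 1 library also gave 1440 to 1545 for irradiation against quiescence (2488) and 1841 or 1893 against etoposide (3000) in RNA-seq. In Ribo-seq it gave 1558 in quiescence without cycling replicate 3 (2631), 939 to 1104 for irradiation against quiescence (1713) and 1500 or 1733 against etoposide (2653). With only the groups compared the counts were 852 in quiescence and 1512 under thapsigargin in RNA-seq, 6020 after etoposide and 4134 for irradiation against etoposide in Ribo-seq, and in efficiency 543 after irradiation (3) and 1058 under thapsigargin (2438). Without thapsigargin libraries, irradiation against quiescence gave 2576 in Ribo-seq.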
